A study of Mus musculus with 8 samples.

Results

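The genes of the mitochondrial DNA replication machinery were examined in whole mouse hearts in which one of them, *Ssbp1*, had been targeted. The 10 members were chosen by name as factors of mtDNA replication: *Ssbp1*, which encodes mtSSB, the protein that binds single-stranded mtDNA, and *Polg*, *Polg2*, *Twnk*, *Top1mt*, *Mgme1*, *Primpol*, *Rnaseh1*, *Dna2* and *Exog*. They are 10 of the 55383 rows in the table of gene values, and all 10 passed the filter on low values. Transcript levels were read by RNA sequencing of the whole heart, from mice that were 5 weeks old. The groups compared were knockout hearts (labelled Ssbp1-/-, n = 2 mice) and control hearts (labelled Ssbp1+/+, n = 2 mice), on a C57BL/6N background.

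The study describes its heart knockouts as *L/L, cre*: both *Ssbp1* alleles carry loxP sites around exon 3, and a *Ckmm-cre* transgene, which uses a muscle creatine kinase promoter, deletes the exon in striated muscle cells, beginning before birth. Its controls, *L/L*, carry the same loxP-flanked alleles without Cre. The labels give the genotypes only as Ssbp1-/- and Ssbp1+/+ and do not say which mouse carried Cre, so the hearts are called knockout and control here by those labels. Cells of the heart other than cardiomyocytes keep *Ssbp1* in this model and were part of each sample. In such bulk RNA, fewer cells of a type and less RNA per cell cannot be told apart.

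Mammalian mtDNA is copied by a small set of nuclear-encoded proteins that differ from those that copy the nuclear genome. The helicase Twinkle unwinds the circle, DNA polymerase gamma (a catalytic subunit with its accessory subunit) extends the new strand, and mtSSB coats the parental strand that has been exposed. Primers are laid down as RNA and later removed by ribonuclease H and by nucleases that trim flaps, and a topoisomerase relieves the supercoils. The heart depends heavily on oxidative phosphorylation, whose mtDNA-encoded subunits are lost when mtDNA cannot be maintained.

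The targeted exon is shown first because it sets what a gene-level value can say about the knockout. *Ssbp1* (ENSMUSG00000029911.14) lies on the forward strand of chromosome 6 at 40471352 to 40484700 in GRCm38 (GENCODE vM21). Of its 7 annotated transcripts, 5 contain the 61-base exon at chr6:40474665-40474725, and 4 of these number it exon 3. The exon is coding throughout. It is given here with the coding part of exon 2 before it and with the junction that its loss would make, all from transcript Ssbp1-203, 5′ to 3′ on the coding strand, with start and stop codons in capitals.
Coding part of exon 2, chr6:40472110-40472133: ATGtttcgaagacctgtgttacag
Exon 3, chr6:40474665-40474725: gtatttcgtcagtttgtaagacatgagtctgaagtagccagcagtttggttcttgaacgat
Coding part of exon 2 joined to the start of exon 4: ATGtttcgaagacctgtgttacagctcTGA

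The full reading frame has 148 codons. The 61 bases of exon 3 leave a remainder of 1 after division by 3, so joining exon 2 to exon 4 would shift the frame, and a TGA stop would follow after 9 codons. This is read from the annotation, since the deposited values are per gene and show no junction. In the 4 transcripts with a consensus coding sequence (CCDS), exon 3 makes up 1.39% to 6.54% of the bases. Nearly all reads counted for *Ssbp1* can therefore come from outside the deleted part, so the value of the gene as a whole is no direct check of the knockout. By proteomics of knockout hearts, the study reports that mtSSB protein was absent.

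Reads recovered from the values of all genes totalled 25558246 and 25682093 in the knockouts, against 24067849 and 19716305 in the controls. Of these reads, 58.0% and 56.2% were on mitochondrial genes in the knockouts, against 62.7% and 66.7% in the controls. Nuclear reads, on which the members are measured, thus numbered 10734547 and 11259234 in the knockouts, against 8981637 and 6568812 in the controls. Of 14522 genes tested, 11 were called higher and 6 lower in knockouts (limma, Benjamini-Hochberg adjusted p under 0.05), and all 6 of the lower ones were mitochondrially encoded. No marker of cardiomyocytes (0 of 6), fibroblasts (0 of 5), endothelial cells (0 of 5), macrophages and leukocytes (0 of 5), mural cells (0 of 3), erythroid cells (0 of 4) or proliferation (0 of 4) was called. Cardiomyocyte markers summed to normalized counts of 469133 to 491839 in knockouts and 462088 to 486999 in controls. Markers of skeletal muscle reached at most 4.94, with *Myh1* at 0 in all 4 libraries. Fibroblast markers summed to 10827 and 13193 in knockouts, against 14790 and 13783 in controls. Erythroid markers summed to 30948 in knockout 2, against 10802 to 14258 in the other libraries, and proliferation markers to 386 and 884 in knockouts against 973 and 633 in controls. The part of these differences in the members' values was not tested.

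None of the 10 members was called in knockout hearts in either direction. Among all genes tested the same rule called 0.0757% higher and 0.0413% lower, so that a count of 0 among 10 members is near the background. At an unadjusted p under 0.05, limma again found 0 of 10 members, against 6.11% of all genes. It found 1 of 10 in 2 of the alternatives, *Mgme1* when fitted without a mean-variance trend (adjusted p = 0.776) and *Dna2* when control 1 was left out (adjusted p = 0.483). By edgeR and DESeq2 on the reads recovered from the values, 0 of 10 members passed at the adjusted or the unadjusted threshold. The log2 fold changes of knockout over control lay between -0.40 and 0.55, 5 above and 5 below 0, with a median of 0.13 against 0.00 over all genes. Adjusted p-values (limma) were 0.815 to 0.986. Every one of the 10 intervals at 95% held 0, so the data give limits on the size of a change and not evidence that levels were equal. These limma p-values rest on the spread between 2 mice per group, drawn toward the spread of genes with similar means. They are therefore not a measure of each gene's own spread alone. Without the trend, the unadjusted limma p was lower for *Polg2* (0.068, against 0.326) and higher for *Polg* (0.381, against 0.264).

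**Figure D1:**
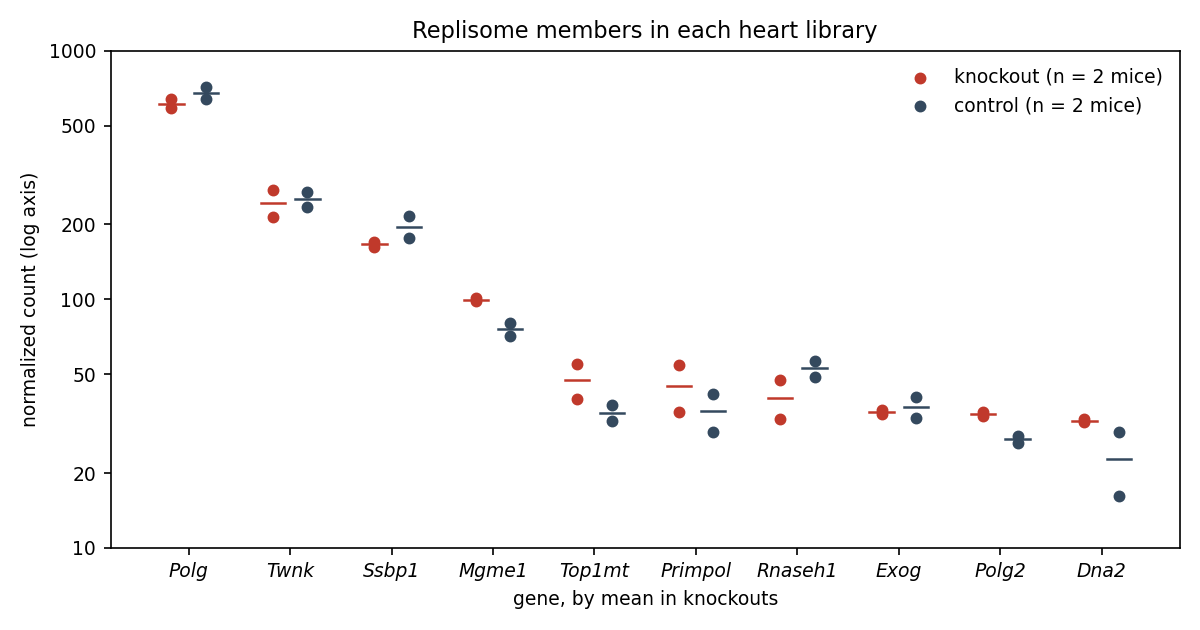
Normalized count (log axis) of each replisome member in each heart library, knockouts on the left and controls on the right of each gene, with 1 point per mouse and a bar at the mean of 2 mice. The members range from 16.2 (*Dna2* in control 2) to 717 (*Polg* in control 1), and the groups overlap in 4 of the 10 genes.

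*Ssbp1* itself had normalized counts of 169.7 and 163 in knockout hearts, against 177 and 216 in control hearts. Both knockouts lay below both controls, but the gap between the controls was larger than the gap between knockout 1 and control 1. The means were 166 ± 4.77 in knockouts and 196 ± 27.3 in controls (SD, n = 2 each). The fold change was 0.852, with a 95% interval of 0.646 to 1.12 (log2 -0.23, SE 0.16, adjusted p = 0.890 by limma). A transcript level below 0.646 of control thus lies outside the interval, and a level equal to control lies inside it. Behind these values were 206 and 213 reads in knockouts, against 181 and 160 reads in controls, which gives a counting error of 6.85% to 7.91% per library. Without control 2, the library with the fewest reads, the log2 fold change was -0.09.

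As a measure that does not depend on the scaling of libraries, the *Ssbp1* count was set against the summed counts of the other 9 members in the same library. It came to 14.3% and 13.6% of that sum in knockouts, against 14.4% and 18.0% in controls. The controls differed from each other more than knockout 1 differed from control 1. The mean difference in the log2 ratio, knockout minus control, was -0.20, with an SD of 0.05 in knockouts and 0.23 in controls. The exact two-sided permutation test gave p = 0.33, the smallest p that 2 against 2 libraries allow. Summed over all 10 members, the normalized counts were 1357 and 1359 in knockouts, against 1409 and 1415 in controls.

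The polymerase was represented by *Polg*, the catalytic subunit of DNA polymerase gamma, and *Polg2*, the accessory subunit that raises its processivity. *Polg* (ENSMUSG00000039176.17, chromosome 7, 79446231 to 79466362, reverse strand) had 587 and 639 in knockouts, against 717 and 637 in controls. Its groups overlapped by a narrow margin, since knockout 2 lay just above control 2. With 473 to 835 reads per library it was the best measured member, and its interval was the narrowest of the 10: a fold change of 0.906, 95% interval 0.745 to 1.1 (adjusted p = 0.900, limma). *Polg2* (ENSMUSG00000020718.12, chromosome 11, 106768253 to 106779537, reverse strand) had 33.8 and 35.2 in knockouts, against 26.4 and 28.3 in controls. Both knockouts were above both controls, and the log2 difference of 0.32 exceeded the gaps within knockouts (0.06) and within controls (0.10). It rested on 41 and 46 reads in knockouts, against 27 and 21 reads in controls, a counting error of 14.7% to 21.8%. Its 95% interval for the fold change, 0.75 to 2.09 around 1.25, held 1 (adjusted p = 0.914, limma). In 2 further mice, whose title and genotype field name opposite groups, *Polg2* was at 39.35 and 35.25. Both values were above the higher knockout (35.19), the second only just, and by either label a control is among these mice.

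Per kilobase of transcript, the level of *Polg* was 3.34 and 3.49 times that of *Polg2* in knockouts, against 5.22 and 4.33 times in controls. Each knockout had a lower ratio than each control (mean log2 difference, knockout minus control, -0.48, SD 0.04 in knockouts and 0.19 in controls). An exact two-sided permutation test gave p = 0.33, again the smallest possible with these libraries. Among the comparisons of members, this one combined a lower value of *Polg* in knockout 1 with higher values of *Polg2* in both knockouts, and neither gene was called.

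*Twnk* encodes the replicative helicase Twinkle (ENSMUSG00000025209.5, chromosome 19, 45005663 to 45012762, forward strand). It had 274 and 215 in knockouts, against 236 and 269 in controls, so that knockout 1 was the highest and knockout 2 the lowest of the 4 libraries. The fold change of 0.964 had a 95% interval of 0.722 to 1.29 (adjusted p = 0.975, limma). Its sign depended on which library was left out: the log2 fold change was 0.12 without knockout 2, 0.04 without control 2 and -0.05 with all 4 libraries. *Top1mt*, the mitochondrial type IB topoisomerase (ENSMUSG00000000934.9, chromosome 15, 75657035 to 75678800, reverse strand), had 39.5 and 55.1 in knockouts, against 32.3 and 37.7 in controls. The lower knockout was close to the higher control. The fold change of 1.33 had a 95% interval of 0.799 to 2.21 (adjusted p = 0.890, limma), and the log2 value of 0.41 was 0.18 without knockout 2.

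The members that are a primase and a ribonuclease H were *Primpol* and *Rnaseh1*. The study assigns the primers at both replication origins to the mitochondrial RNA polymerase, not to *Primpol*. It also describes ribonuclease H1 as cutting RNA that then serves as primers. *Primpol*, a primase-polymerase that can restart synthesis past lesions in the nucleus and in mitochondria (ENSMUSG00000038225.15, chromosome 8, 46575594 to 46617212, reverse strand), had 54.4 and 35.2 in knockouts, against 29.3 and 41.8 in controls. It was the member with the widest gap between the knockouts (0.61 on the log2 scale), and the groups overlapped. *Rnaseh1*, which encodes the ribonuclease H that degrades RNA primers on mtDNA and also acts in the nucleus (ENSMUSG00000020630.9, chromosome 12, 28649602 to 28659589, forward strand), had 33.0 and 47.4 in knockouts, against 48.9 and 56.6 in controls. Both knockouts were below both controls, knockout 2 only just, and the fold change of 0.757 had a 95% interval of 0.461 to 1.24 (adjusted p = 0.890, limma). Without knockout 1 the log2 value for *Rnaseh1* was -0.15, against -0.40 with all libraries.

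The nucleases showed the member with the smallest unadjusted p. *Mgme1*, a mitochondrial single-strand exonuclease that trims flaps at the ends of new strands (ENSMUSG00000027424.11, chromosome 2, 144270663 to 144281227, forward strand), had 98.0 and 101 in knockouts, against 80.1 and 71.4 in controls. The knockouts lay close together and above both controls, and the log2 difference of 0.39 exceeded the gaps within knockouts (0.04) and within controls (0.16). The means were 99.5 ± 2.09 in knockouts and 75.8 ± 6.18 in controls (SD, n = 2 each). The fold change was 1.31, with a 95% interval of 0.947 to 1.82 (adjusted p = 0.815 by limma across all genes), on 53 to 132 reads per library. *Mgme1* thus was not called, and its log2 fold change stayed between 0.31 and 0.47 whichever library was left out. In 2 further mice, whose title and genotype field name opposite groups, *Mgme1* was at 122 and 141. Both values were above both knockouts, and by either label a control is among these mice.

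*Dna2*, a nuclease-helicase of flap processing that is found in mitochondria and in the nucleus (ENSMUSG00000036875.15, chromosome 10, 62947026 to 62974185, forward strand), had 32.1 and 32.9 in knockouts, against 29.3 and 16.2 in controls. It had the highest fold change of the 10, at 1.47, and the widest interval, 0.748 to 2.88 (adjusted p = 0.890, limma). That value rested on control 2, which held 12 reads of the gene: the log2 fold change was 0.55 with all libraries and 0.14 without control 2. *Exog*, a mitochondrial endonuclease and exonuclease of the EndoG family (ENSMUSG00000042787.15, chromosome 9, 119444943 to 119465517, forward strand), had 34.6 and 36.0 in knockouts, against 33.2 and 40.4 in controls. Both knockouts fell between the controls, and the fold change of 0.963 had a 95% interval of 0.59 to 1.57 (adjusted p = 0.986, limma).

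**Figure D2:**
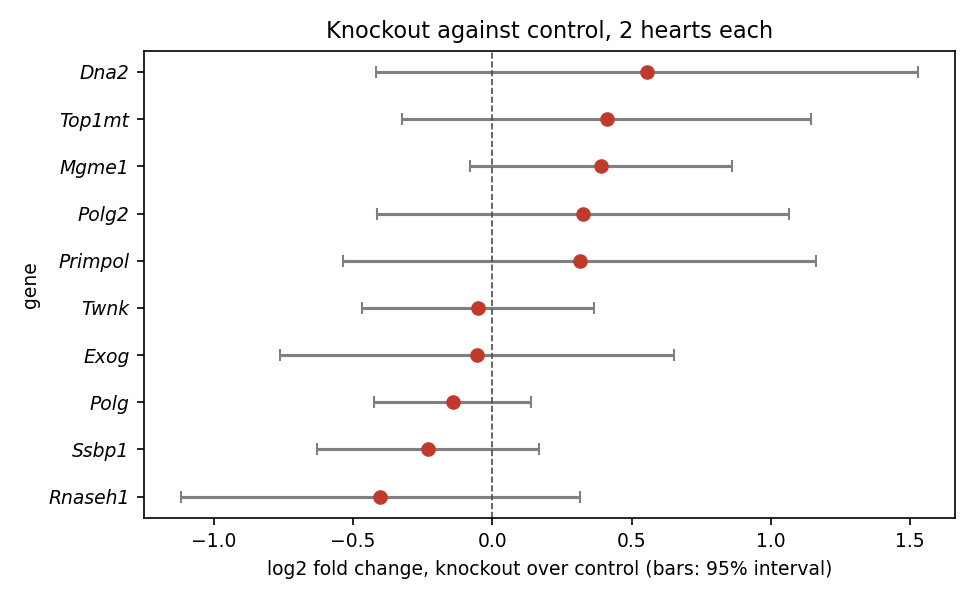
Log2 fold change of each member, knockout over control (2 hearts each), with points for the limma estimate and bars for its 95% interval, ordered by the estimate. Estimates run between -0.40 (*Rnaseh1*) and 0.55 (*Dna2*), and the dashed line at 0 crosses all 10 bars.

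Counted by the order of the libraries alone, 4 members (*Polg2*, *Top1mt*, *Mgme1* and *Dna2*) had both knockouts above both controls, as did 18.1% of all genes tested. The reverse order held for 2 members (*Ssbp1* and *Rnaseh1*), against 17.5% of all genes. The other 4 overlapped. Only for *Polg2* and *Mgme1* was the difference between the groups larger than the gap within each of them. The share of all genes that meet this was not computed, so this count sets neither gene apart from the background. Most members were measured on few reads: 6 of the 10 averaged under 60 normalized counts, and for these the intervals were widest. Because 1 was added to each value before the logarithm, fold changes of such low genes are somewhat understated.

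**Figure D3:**
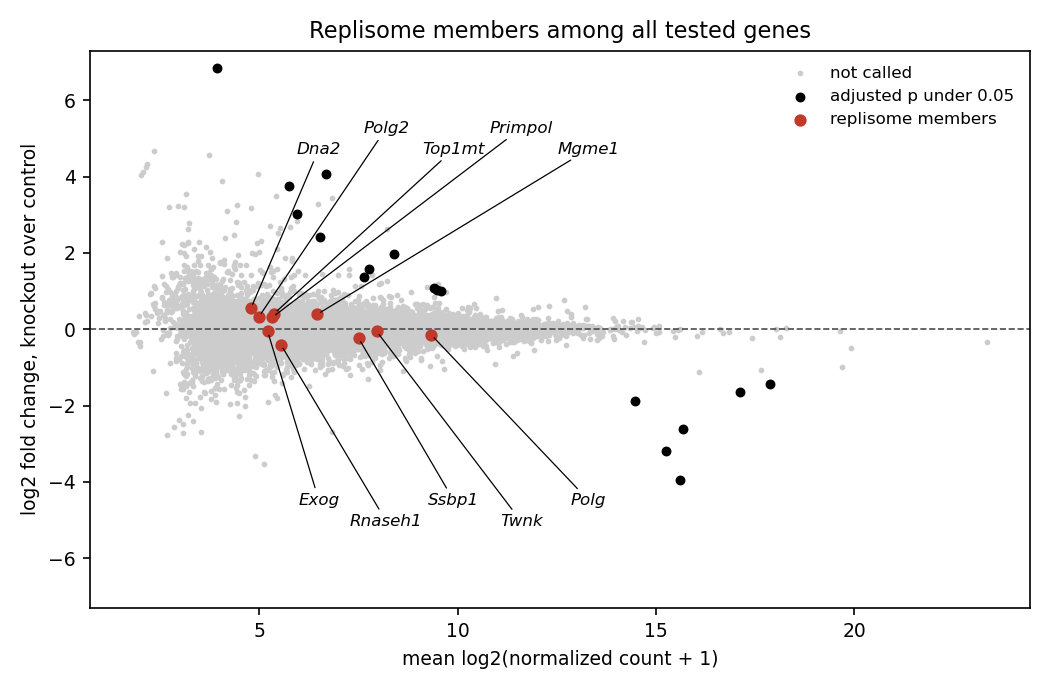
Log2 fold change, knockout over control, against the mean log2(normalized count + 1) for the 14522 genes tested, with the 17 called genes in black and the 10 replisome members in red. The members lie in the grey body of genes that were not called, between -0.40 and 0.55.

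Levels of different genes were compared per kilobase of annotated transcript, using the CCDS transcripts. In knockouts, *Polg* had 78.2 ± 4.64 and *Twnk* 70.1 ± 12.0 normalized counts per kilobase, and these did not differ beyond their SD. In controls the same genes had 86.4 ± 7.23 (*Polg*) and 72.4 ± 6.87 (*Twnk*) (SD, n = 2). The place of *Ssbp1* in the order could not be fixed, since its CCDS transcripts run between 933 and 4398 bases: its level was 178 per kilobase in knockouts and 210.3 in controls if all reads came from the shortest, and 37.8 in knockouts and 44.6 in controls if all came from the longest. *Mgme1*, below *Polg* and *Twnk*, had 35.0 to 43.1 per kilobase in knockouts and 26.7 to 32.8 in controls, depending on the transcript. *Rnaseh1* (27.6 ± 7.04 in knockouts, 36.2 ± 3.75 in controls), *Top1mt* (24.9 ± 5.77 in knockouts, 18.4 ± 2.03 in controls) and *Polg2* (22.9 ± 0.67 in knockouts, 18.2 ± 0.89 in controls) also lay below *Polg* and *Twnk*. In knockouts these 3 lay within their SDs, whereas in controls *Rnaseh1* lay above the other two by more than the SDs. *Primpol* had 11.9 to 24.4 per kilobase in knockouts and 9.42 to 19.4 in controls by transcript, so that in controls its lower bound lay just under *Exog*. Low levels were also found for *Exog* (9.21 ± 0.25 in knockouts, 9.61 ± 1.33 in controls) and *Dna2* (7.89 ± 0.13 in knockouts, 5.52 ± 2.26 in controls).

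**Figure D4:**
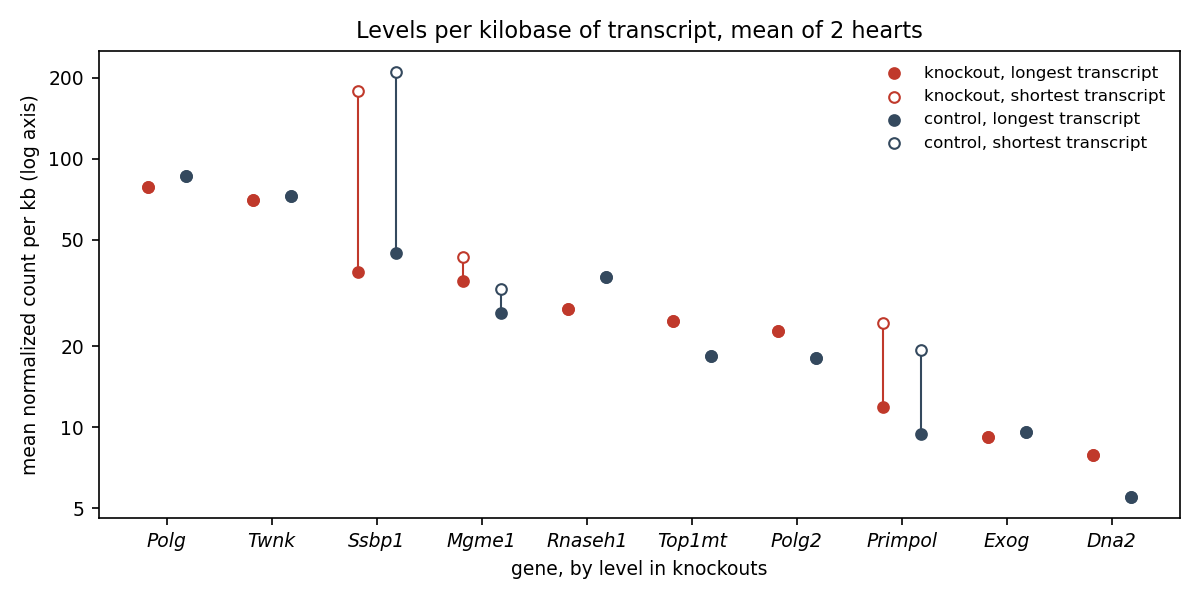
Mean normalized count per kilobase of transcript (log axis) of each member in knockouts (left, red) and controls (right, blue), means of 2 hearts each. Filled points use the longest CCDS transcript and open points the shortest, which differ for *Ssbp1*, *Mgme1* and *Primpol*. *Polg* and *Twnk* lie near 70.1 to 86.4, and *Dna2* is lowest at 7.89 in knockouts and 5.52 in controls.

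The wider machinery was read from lists of genes that act beside the members, which were chosen by name. Factors of primer synthesis and of the nucleoid, the protein-DNA particle that holds mtDNA, were measured for 6 of 6 genes, and 0 were called in either direction (median log2 fold change 0.16, against 0.00 over all genes). In this list, 3 of 6 genes had an unadjusted p under 0.05 (limma), against 6.11% of all genes. The lists were chosen with earlier results of these data known, so this share is no independent support. *Lonp1*, the mitochondrial protease that degrades the packaging protein TFAM among other substrates, had 1843 and 1594 in knockouts, against 1057 and 1106 in controls. Its groups stood well apart, and the fold change was 1.58, 95% interval 1.32 to 1.90 (adjusted p = 0.259 by limma). DESeq2 on the recovered reads called *Lonp1* higher in knockouts, and edgeR did not.

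*Tfam*, which packages mtDNA and starts its transcription, had 394 and 353 in knockouts, against 238 and 303 in controls (log2 fold change 0.47, adjusted p = 0.773 by limma). *Atad3a*, a membrane ATPase associated with nucleoids, had 575 and 501 in knockouts, against 427 and 365 in controls (log2 fold change 0.44, adjusted p = 0.746 by limma). For both genes each knockout was above each control. With *Lonp1* this held for 3 of 6 genes in the list and the reverse for 0, against 18.1% and 17.5% of all genes. *Polrmt*, the mitochondrial RNA polymerase that also makes replication primers, was scattered instead, with 203 and 312 in knockouts, against 459 and 247 in controls.

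Genes of mtDNA repair and ligation were tested for 12 of 13 members (*Pif1* was too low) and 0 were called, with a median log2 fold change of 0.01. None had an unadjusted p under 0.05. *Endog*, the mitochondrial endonuclease related to *Exog*, had 273 and 257 in knockouts, against 218 and 207 in controls (adjusted p = 0.806 by limma). *Fen1*, the flap endonuclease of nuclear replication, had 21.4 and 36.7 in knockouts, against 45.9 and 44.5 in controls (adjusted p = 0.833, limma). *Top3a*, whose product separates joined DNA circles, had 50.2 and 63.5 in knockouts, against 72.3 and 79.5 in controls (adjusted p = 0.837, limma). *Endog* thus had both knockouts above the controls, and *Fen1* and *Top3a* had both below. These were the only such genes, 1 and 2 of 12 tested, against 18.1% above and 17.5% below among all genes.

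Nuclear genes were described because *Primpol*, *Rnaseh1* and *Dna2* also serve the nucleus. Of 20 genes of nuclear DNA replication, 0 were called. The log2 fold change was positive in 5 and negative in 15, with a median of -0.25 against 0.00 over all genes. Both knockouts were above both controls for 3 of the 20 and below both for 7, against 18.1% and 17.5% of all genes. In this list 1 gene (*Mcm4*) had an unadjusted p under 0.05 (limma), against 6.11% of all genes. *Fen1* is in this list and in the repair list. The list was chosen with earlier results known, so these shares are no independent support. *Mcm4*, a subunit of the replicative helicase of the nucleus, had 62.6 and 74.2 in knockouts, against 91.9 and 107.8 in controls (adjusted p = 0.806 by limma). *Pola1*, the catalytic subunit of the polymerase that extends primers, had 80.7 and 114.8 in knockouts, against 163 and 116 in controls. *Pold2*, a subunit of DNA polymerase delta, lay on the other side, with 175 and 106 in knockouts, against 95.8 and 91.6 in controls. The proliferation markers *Mki67*, *Top2a*, *Ccnb1* and *Cdk1* also had negative estimates in 4 of 4 cases (0 called), with *Mki67* at 245 and 636 in knockouts, against 639 and 457 in controls.

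Among 10 genes related to the members by name or family, 0 were called and the median log2 fold change was 0.11. This list of nuclear counterparts also holds the mitochondrial *Endog*, which is in the repair list too. *Ssbp3* and *Ssbp4* share the name of *Ssbp1* but encode nuclear transcriptional cofactors. *Ssbp4* had 89.0 and 122 in knockouts, against 155 and 143 in controls (adjusted p = 0.806 by limma). *Ssbp3* had 217 and 207 in knockouts, against 173 and 198 in controls (adjusted p = 0.895, limma). Both knockouts were below both controls for *Ssbp4* and above both for *Ssbp3*. In the whole list 2 of 10 genes had both above and 1 had both below, against 18.1% and 17.5% of all genes.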

How the data were processed

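RNA of whole hearts was sequenced in stranded TruSeq libraries. The authors masked copies of mtDNA in the nuclear genome (GRCm38.p6), aligned with STAR 2.7.3a, quantified by strand with Salmon 1.1.0 and divided gene counts by DESeq2 1.26.0 size factors; these normalized counts are the deposited signal. The authors' deposited comparison (fold changes and p-values) was not used. Within a tolerance of 0.001, 100% of values were whole multiples of 1 read, from which reads were recovered. The labels of 2 further mice contradict each other, and these entered no comparison.

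Genes reaching 10 normalized counts in 2 or more of the 4 libraries were tested two-sided with limma 3.58.1 (R 4.3.3, mean-variance trend) on log2(normalized count + 1), with Benjamini-Hochberg adjustment over all 14522 genes at 0.05. Alternatives used pseudocounts of 0.5 and 5, other filters and scalings, limma without the trend, a replicate block, each library left out, and edgeR 4.0.16 and DESeq2 1.42.0 on recovered reads. The fits were tested on simulated data. Positions and exon sequences came from GENCODE vM21 on GRCm38. Several members overlap genes on the opposite strand, which stranded counting separates. Counting errors are the inverse square root of the recovered reads, which are rounded Salmon estimates and not raw counts. All 10 members and, per other list, up to 4 genes with the smallest unadjusted p were named. Members and lists were chosen with earlier results of these data known. Figures used Python 3.11.15 and matplotlib 3.10.9.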

Additional observations from a re-analysis of the deposited data

Results flagged for a closer look

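For 2 further mice, each sequenced in 2 technical runs combined by the authors, the title and the genotype field name opposite groups: mouse 585H is WT by title and Ssbp1-/- by genotype, and mouse 586H is KO by title and Ssbp1+/+ by genotype. In these libraries, which are in no group and no comparison, 8 values of members were above both controls. These were 5 of 10 members in mouse 585H and 3 of 10 in mouse 586H, against 33.8% (585H) and 33.6% (586H) of all 14522 tested genes. In mouse 585H these were *Polg2* at 39.3 normalized counts, *Twnk* at 316, *Top1mt* at 56.8, *Mgme1* at 122 and *Rnaseh1* at 58.6. In mouse 586H these were *Polg2* at 35.2, *Top1mt* at 43.4 and *Mgme1* at 141. The highest controls were 28.3 for *Polg2*, 269 for *Twnk*, 37.7 for *Top1mt*, 80.1 for *Mgme1* and 56.6 for *Rnaseh1*. With 1 library each, no test was made, and no group is read from these values.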

How the results depend on the processing

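No member was called under any of the 14 alternatives to the fit, and the lowest adjusted p of any member was 0.483 (*Dna2* without control 1, limma). Of 134 member fold changes under alternatives, 3 changed sign: *Twnk* was 0.12 without knockout 2 and 0.04 without control 2, and *Exog* was 0.084 without control 2 (-0.19 without control 1). The log2 fold change of *Ssbp1* ranged between -0.37 and -0.09 with each library left out in turn, the log2 ratio of *Ssbp1* to the other members between -0.37 and -0.04, and that of *Polg* to *Polg2* between -0.61 and -0.34; these ratios were not tested with a library left out. A filter of at least 50 in 2 libraries left 4 of the 10 members. DESeq2 called 1 gene of primer synthesis and nucleoid (*Lonp1*), and 0 were called in the main test. Over all genes, 11 higher and 6 lower calls became 43 and 19 by DESeq2, 6 and 0 without the trend, 17 and 7 with the filter at 50, and 1 to 21 higher and 4 to 12 lower with a library left out. The causes were not tested. Low read counts limit the precision of several members, down to 12 reads of *Dna2* in control 2.

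The labels number the mice 1 and 2 in each group without saying what a number shares. Names of the mice in the titles run together for control 1 and both knockouts. The name of control 2 is next to those of the mice with contradictory labels. What neighbouring names share is not said. Values that rest on control 2 therefore cannot be told apart from a difference between these sets of mice. Deviations of same-numbered libraries correlated at r = 0.31 over the 14522 tested genes and 0.12 over those with a mean of at least 50; with 2 pairs this does not establish a pairing. With the replicate block, *Ssbp1* had a log2 fold change of -0.23 (adjusted p = 0.944, limma), the 2 log2 ratios were -0.20 and -0.48, 0 members were called, and calls over all genes were 23 higher and 7 lower.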

Other observations

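The members not named above had these normalized counts in the mice whose labels contradict each other. *Ssbp1* was at 152 in mouse 585H and at 211 in mouse 586H, the first below all 4 compared libraries and the second within the range of the controls. *Polg* was at 682 in 585H and 633 in 586H, and *Primpol* at 28.0 and 27.1 in the same order. *Dna2* was at 27.1 in 585H and 20.3 in 586H, and *Exog* at 28.0 and 25.8. *Primpol* and *Exog* were thus lower in both mice than in any of the 4 compared libraries. *Mgme1*, at 122 and 141, was higher in both than in any of the 4.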
